A study of Mus musculus with 9 samples.

Results

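Messenger RNA of the protein components of the cytosolic ribosome was examined in mouse neutrophils taken from 3 tissues. Members were the genes whose symbol had the form of an Rpl or Rps gene (a number, with an optional letter and an l, x or y) or of Rplp and a digit, without pseudogenes and without the Rps6k kinases. The rule found 85 of the 24532 genes in the deposited series table, 53 of the large subunit and 32 of the small subunit, and it used symbols alone, not expression. Rpsa, Fau and Rack1 also encode ribosomal proteins but have other symbols, and they are given separately. Neutrophils of wild type C57BL/6 mice had been sorted by flow cytometry from bone marrow, from peripheral blood and from lung, with 3 biological replicates of each. No treatment is named in any group, and the sources used here give neither the age and sex of the animals nor the antibodies of the sort. Polyadenylated RNA was sequenced, which lacks most ribosomal RNA, so these data describe the messages of ribosomal proteins and not the number of ribosomes.

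A cytosolic ribosome is built from a small subunit that reads the messenger RNA and a large subunit that joins amino acids, and each contains many different proteins, nearly all in a single copy. Messages of ribosomal proteins are among the most abundant in growing cells and typically start with a run of pyrimidines at the cap, the 5′ terminal oligopyrimidine (TOP) tract, through which mTORC1 and the binding protein LARP1 control their translation and stability. Neutrophils are made in the bone marrow from dividing precursors that produce much protein, and mature neutrophils that leave for blood and tissue are short-lived and no longer divide.

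Start-site sequences are shown because TOP messages are controlled through them. RefSeq (GRCm38.p6) gave a start for 64 of the 85 members. A tract, here C at the listed start followed by at least 4 C or T, was found on the gene's strand in 14 of these 64 members (21.9%), against 3.01% of the 27025 genes with an entry. Annotated starts may differ by some bases from the starts used in these cells, so that a tract not found says only that these letters are not at the listed position. Each window below holds 15 bases before the start and 15 from the start on, 5′ to 3′ on the gene's strand, and capitals mark the tract.
Rpl14 (chr9:120571502-120571531, + strand): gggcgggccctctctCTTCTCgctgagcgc
Rpl35 (chr2:39005117-39005146, − strand): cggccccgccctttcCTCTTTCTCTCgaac
Rpl38 (chr11:114668565-114668594, + strand): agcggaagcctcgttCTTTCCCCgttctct
Rplp2 (chr7:141447636-141447665, + strand): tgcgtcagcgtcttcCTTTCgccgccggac
Rps6 (chr4:86857353-86857382, − strand): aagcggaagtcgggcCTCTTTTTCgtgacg
Rps18 (chr17:33955651-33955680, − strand): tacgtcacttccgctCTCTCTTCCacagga
Rpl14, Rpl35, Rpl38, Rplp2 and Rps6 are shown as members that rose in lung neutrophils, and Rps18 as a member that did not pass the test and was low in replicate 3 of every tissue. Among the 60 tested members with an entry, the median log2 fold change of lung over marrow was 0.64 in the 13 with a tract and 0.64 in the 47 without. Of these, 8 of 13 with a tract and 19 of 47 without rose.

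Libraries held between 42045548 and 56796219 reads on genes, and levels below are reads scaled to a fixed library size (CPM), here the TMM-adjusted one. All 8 neutrophil markers, S100a8 and Ly6g among them, were seen in every library, with a summed level of 81402 to 119443 CPM in marrow, 29773 to 43113 in blood and 20813 to 38422 in lung. Markers of other cells were present too and differed between replicates. All 8 B cell markers were seen in every library, and their sum was 114, 65.5 and 31.6 CPM in marrow replicates 1 to 3, 458, 446 and 73.5 in blood, and 495, 441 and 50.2 in lung, lowest in replicate 3 of each tissue. The sum of the 8 fibroblast markers was 42.1 to 171 CPM in marrow, 7.50 to 43.4 in blood, and 1720, 1409 and 98.9 in the lung replicates. Lum and Fbln1 were at 0 in some libraries. The sum of the 10 lung epithelium markers was 23.2 to 93.8 CPM in marrow, 23.5 to 38.0 in blood, and 911, 287 and 78.9 in lung, with Sftpc, Sftpa1, Sftpd and Scgb1a1 at 0 in some libraries. In such bulk samples a smaller number of cells of a type cannot be told apart from less RNA per cell.

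Of the 85 members, 81 had enough reads to be tested among 13510 genes. Rpl10l, Rpl39l, Rpl32l and Rpl26 had 0 to 37 reads per library and were not tested. Rpl10l and Rpl39l are copies known mainly from testis, and Rpl26 is a core large-subunit protein whose reads are treated with the counting below. On the FPKM scale, which is per transcript length, the highest mean levels over the 9 libraries were those of Rps9 (1212), Rps27 (763), Rpl41 (499), Rps27a (450) and Rps29 (429). Rps9 lies at the entry of the messenger RNA channel, Rpl41 is a very short peptide, and Rps27a is made as a fusion with ubiquitin. Lowest on this scale were the 4 untested members, from Rpl10l (0.0811) to Rpl26 (0.282), and Rpl3l (2.31), a copy of Rpl3 known from muscle. Members thus ranged over more than 4 orders of magnitude. The low end holds copies such as Rpl10l, Rpl39l and Rpl3l, and Rpl26, whose low count is treated below. The span therefore does not describe the core proteins, which occur in nearly equal numbers in a ribosome.

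Ribosomal protein messages took a small share of all reads, higher in lung than in marrow. The 85 members together held 1.02, 0.979 and 0.836% of reads in marrow replicates 1 to 3 (mean 0.944 ± 0.0957%, SD, n = 3). In blood they held 1.19, 1.61 and 0.969% (1.26 ± 0.325%, SD, n = 3), and in lung 2.36, 1.71 and 1.05% (1.70 ± 0.657%, SD, n = 3). Every lung library lay above every marrow library, whereas blood overlapped both. Within each tissue replicate 3 had the lowest share, and lung replicate 3 lay among the blood libraries. Summed after TMM scaling, members reached 10865, 10900.3 and 10776 CPM in marrow, 10979, 12813 and 9227 in blood, and 19927, 14983 and 13230 in lung, and on this scale lung lay above blood as well, without overlap. The B cell markers were also lowest in replicate 3 of each tissue, and the fibroblast and lung epithelium markers were lowest in lung replicate 3. Their part in the share was not tested.

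**Figure D1:**
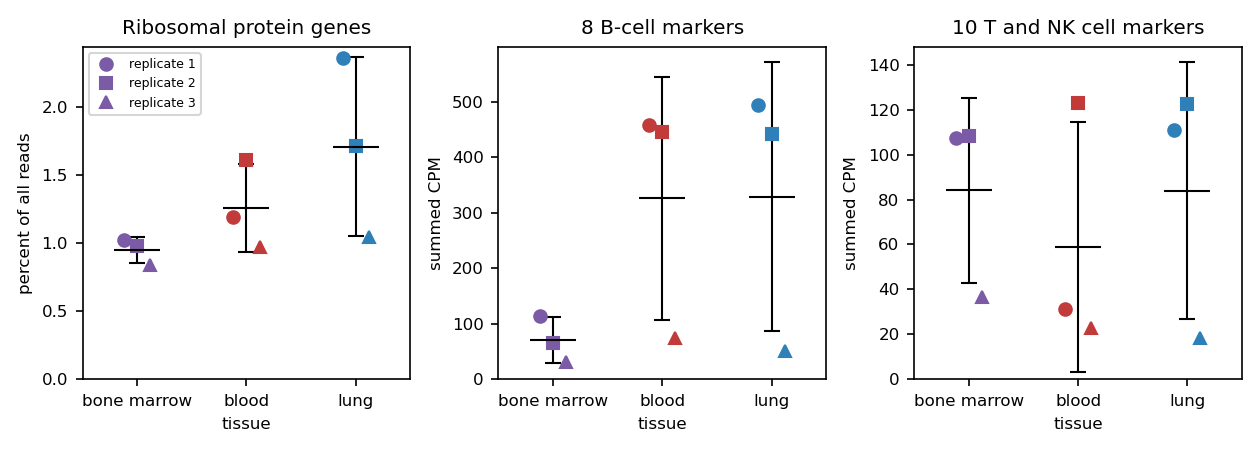
Share of reads on the 85 ribosomal protein genes (percent) and summed CPM of the B cell and the T and NK cell markers, by tissue. Shapes stand for replicate numbers, and bars for the mean ± SD of 3 libraries. Replicate 3 has the lowest share in each tissue (0.836, 0.969 and 1.05%) and the lowest B cell sum (31.6, 73.5 and 50.2 CPM).

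Lung neutrophils were compared with those of the marrow, where neutrophils are made. In lung, 35 of the 81 tested members rose and none fell (edgeR quasi-likelihood test with adjusted p under 0.05). This is 43.2% of members, against 15.6% of all 13510 genes that were called higher (38.2% in either direction). The median log2 fold change over members was 0.64, against 0.06 over all genes, and 78 of 81 members lay above 0, against 52.2% of genes. For 49 members every lung library lay above every marrow library, and for none below, where 20.1% of all genes lay wholly above. Changes were modest in size, from 0.46 (Rps25) to 1.22 (Rpl14) on the log2 scale among those that rose. By subunit, 23 of 49 large-subunit and 12 of 32 small-subunit members rose. At an unadjusted p under 0.05 in the same edgeR test there were 49 members. The share of all genes at that threshold was not counted, and it is at least the 38.2% called after adjustment.

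The member with the smallest adjusted p was Rpl23 (gene 65019, chr11:97777526-97782439, mm10), a protein of the intersubunit face of the large subunit that is also known to bind MDM2. Its level was 156, 167 and 172 CPM in marrow, 174, 198 and 150 in blood, and 396, 305 and 335 in lung. All 3 lung libraries lay well above the other 6, and replicate 3 was not low in lung. The log2 fold change of lung over marrow was 1.07 ± 0.17 (SE, edgeR adjusted p = 0.00124) and that of lung over blood 0.99 ± 0.17 (edgeR adjusted p = 0.00317).

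The largest fold change belonged to Rpl14 (gene 67115, chr9:120571517-120574653, mm10), a large-subunit protein. It stood at 61.9, 55.9 and 39.5 CPM in marrow, 64.5, 87.8 and 45.9 in blood, and 162, 126 and 79.5 in lung, a log2 fold change of lung over marrow of 1.22 ± 0.32 (edgeR adjusted p = 0.0149). Lung lay above marrow in every library, while lung replicate 3 fell below blood replicate 2. Rpl35, which lies at the exit of the peptide tunnel, stood at 46.6, 48.9 and 35.4 CPM in marrow and 138, 103 and 51.6 in lung (1.16 ± 0.36, edgeR adjusted p = 0.033). Rpl22, a protein with a role in lymphocyte development, stood at 30.2, 27.2 and 20.9 CPM in marrow and 79.2, 56.3 and 34.6 in lung (1.12 ± 0.31, edgeR adjusted p = 0.0204). Rpl35 and Rpl22 had the same order of libraries in lung, with replicate 3 close to the highest marrow library.

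Members with a steadier replicate 3 had smaller errors. Rpl39, a very short protein of the exit tunnel encoded on chromosome X, stood at 38.4, 35.2 and 29.9 CPM in marrow and 81.1, 73.5 and 56.9 in lung (1.03 ± 0.19, edgeR adjusted p = 0.00309). Its lung libraries lay above every marrow library. Rps28 (1.11 ± 0.28), Rpl36 (1.08 ± 0.23), Rplp2 (1.02 ± 0.23) and Rpl38 (0.96 ± 0.22) were also among the members with the largest called changes.

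Grouped by place in the ribosome, members of most groups rose in part. In the P stalk, which recruits the elongation factors, Rplp1 (0.89 ± 0.28, edgeR adjusted p = 0.0337) and Rplp2 rose, whereas their anchor Rplp0 did not pass (0.30 ± 0.23, adjusted p = 0.331). Rplp1 stood at 149, 138 and 122 CPM in marrow and 358, 232 and 169 in lung, and Rplp0 at 350, 344 and 311 in marrow and 512, 416 and 311 in lung, where lung replicate 3 stood at the lowest marrow value. The difference between stalk members was not tested. Around the peptidyl transferase centre, Rpl8 (0.80) and Rpl10 (0.56) rose and Rpl3 did not pass (0.45 ± 0.50, edgeR adjusted p = 0.501). Along the exit tunnel Rpl17, Rpl39 and Rpl35 rose, and Rpl4 and Rpl23a, each with a log2 fold change of 0.24, did not pass. Of the 8 small-subunit proteins along the messenger RNA channel, Rps2, Rps3, Rps15, Rps26 and Rps28 rose.

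Members known for roles beyond the ribosome also rose in part. Rpl5 and Rpl11 form with 5S ribosomal RNA the particle that binds MDM2. Rpl11 rose (0.61 ± 0.19, edgeR adjusted p = 0.0301), and Rpl5 did not pass (0.71 ± 0.26, adjusted p = 0.0616), though it did with the replicate number as a block (adjusted p = 0.00482). Rps6, the substrate of the S6 kinases, rose from 162, 168 and 156 CPM in marrow to 309, 243 and 203 in lung (0.64 ± 0.20, edgeR adjusted p = 0.035). Rps25 (0.46 ± 0.15), used by some internal ribosome entry sites, and Rpl41 (0.64 ± 0.18) rose as well. Of 9 members mutated in Diamond-Blackfan anaemia, a failure of red cell production, Rps10, Rps26, Rpl11 and Rpl35a rose. Rps19, the gene most often mutated in that disease, did not pass (0.88 ± 0.48, edgeR adjusted p = 0.18), with 62.8, 58.2 and 45.0 CPM in marrow and 156, 105 and 44.5 in lung. Lung replicates 1 and 2 lay far above marrow, and lung replicate 3 lay below all of marrow.

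At the other end, Rps27a (−0.24), Rpl31 (−0.15) and Rpl7l1 (−0.04) were the members below 0 in lung over marrow, and none of them passed (edgeR adjusted p = 0.341, 0.661 and 0.866). Their sign depended on the scaling: all 3 lay above 0 with upper-quartile scaling (0.09, 0.19 and 0.28) and with total counts (0.04, 0.17 and 0.23). Rps27a stood at 346, 396 and 476 CPM in marrow, 281, 264 and 281 in blood, and 402, 288 and 345 in lung. It was lowest in blood, and its lung libraries overlapped those of marrow. Under the 5 scalings tried, the median of all genes in this comparison lay between 0.06 and 0.38, and the member median lay 0.57 to 0.60 above it.

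With replicate number as a block, 52 members rose in lung over marrow (background 18.2%), including all 35, and none fell (background 26%). Leaving out single libraries gave 14, 11 and 14 members without marrow replicates 1, 2 and 3, 29, 32 and 39 without those of blood, and 19, 21 and 57 without those of lung. In the same order, 8.61, 6.62 and 10.6%, 13.5, 13.7 and 15.7%, and 10.2, 9.50 and 22.9% of all genes were called higher. Rpl23, Rpl24, Rpl27, Rpl36, Rpl38, Rpl39 and Rplp2 were among the 8 members called in each of these 9 fits.

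**Figure D2:**
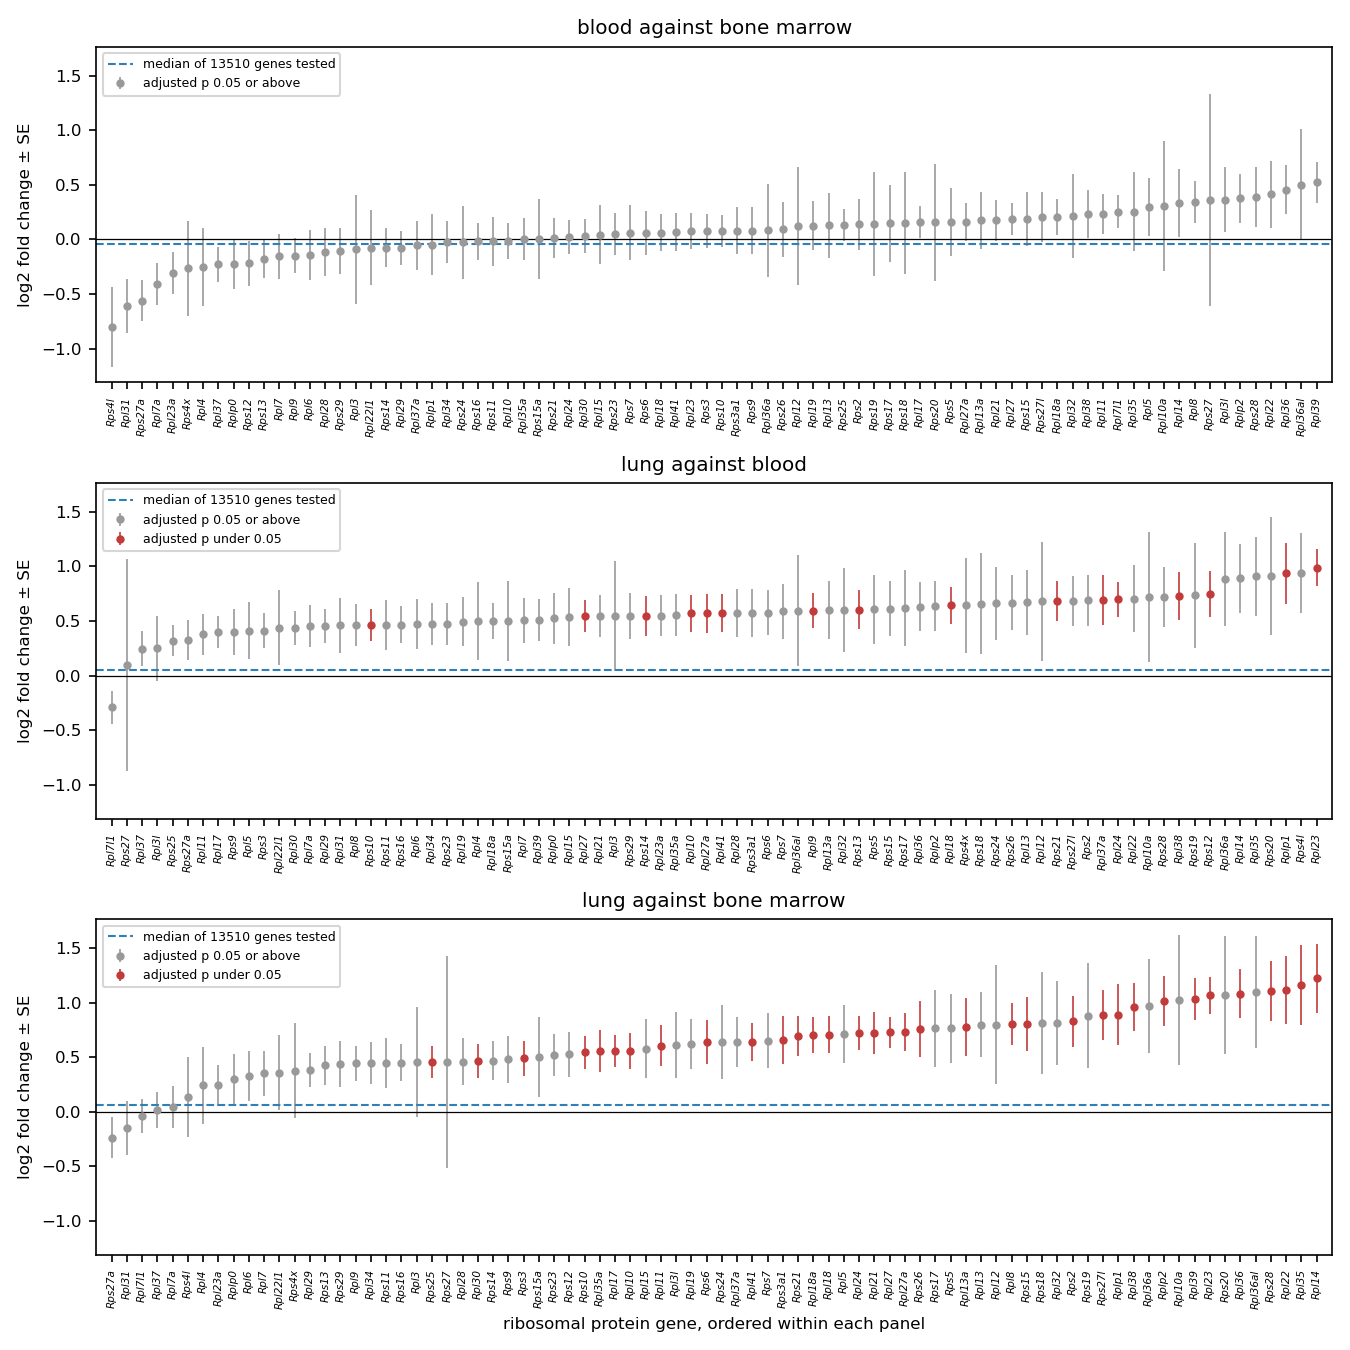
Log2 fold change ± SE of 80 of the 81 tested members in the 3 comparisons, with red points for an edgeR adjusted p under 0.05 and a dashed line at the median of all 13510 genes. Red points number 0 in blood against marrow, 16 in lung against blood and 34 in lung against marrow, all of them above 0.

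Lung neutrophils were next compared with those in the circulation. In lung, 17 of 81 members rose and none fell (21.0% of members, against 13.2% of all genes called higher and 15.7% called lower). The median log2 fold change was 0.57, against 0.05 over all genes, and 80 of 81 members lay above 0, against 52.3% of genes. Libraries did not overlap for 34 members that were higher in lung (17.6% of all genes) and for 1, Rpl7l1, that was lower (24% of all genes). At an unadjusted p under 0.05 in the same edgeR test there were 50 members. The share of all genes at that threshold was not counted, and it is at least the 28.9% called in either direction after adjustment. With the replicate number as a block 43 rose (background 15.3%), including all 17, and none fell (background 19.8%).

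After Rpl23, changes that passed included those of Rplp1 (0.94 ± 0.28, edgeR adjusted p = 0.034), Rps12 (0.75 ± 0.21) and Rpl38 (0.73 ± 0.22). Rpl38, known for its part in translating Hox messages in the embryo, stood at 46.7, 59.5 and 45.5 CPM in blood and 116, 71.6 and 64.0 in lung. Rpl24, a protein at the subunit interface, stood at 80.3, 95.8 and 70.2 CPM in blood and 151, 122 and 126 in lung (0.70 ± 0.16, edgeR adjusted p = 0.0112). Lung lay above blood in every library for both genes. Rpl37a (0.69), Rps21 (0.68), Rpl18 (0.64), Rps13 (0.60), Rpl9 (0.59), Rpl41 (0.57), Rpl27a (0.57), Rpl10 (0.57), Rps14 (0.55), Rpl27 (0.54) and Rps10 (0.46) passed as well. Rps14, a small-subunit protein near the messenger RNA path, stood at 193, 207 and 169 CPM in blood and 347, 242 and 243 in lung.

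Several members with large fold changes had wide errors and did not pass. Rps4l, a copy of Rps4x, had 0.94 ± 0.37 (edgeR adjusted p = 0.0886), and Rps20 had 0.91 ± 0.54 (edgeR adjusted p = 0.247, and 0.0452 with the block). Rpl7l1, a large-subunit homologue with a role in ribosome assembly, was lower in lung (−0.29 ± 0.15, adjusted p = 0.192), at 27.6, 29.4 and 36.1 CPM in blood and 26.9, 22.8 and 26.4 in lung. The smallest changes above 0 were those of Rps27 (0.10), whose lung counts are treated below, Rpl3l (0.25) and Rpl37 (0.25). Within numbers, the median log2 ratio of lung over blood across members was 0.91, 0.26 and 0.49 for replicates 1, 2 and 3, against 0.08, 0.02 and −0.08 over all genes.

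The number of calls against blood rested on single libraries. It was 9, 6 and 9 without marrow replicates 1, 2 and 3, and 1, 6 and 1 without those of blood. Without lung replicates 1, 2 and 3 it was 4, 10 and 56. In the same order, 11.9, 11.3 and 12.4%, 8.34, 7.16 and 6.54%, and 8.90, 9.36 and 19.85% of all genes were called higher. The share of members was below that of all genes when any marrow library, blood replicate 1 or 3, or lung replicate 1 was left out. Only Rpl23 was called in all 9 fits.

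Blood neutrophils were compared with marrow neutrophils, the step at which the cells leave their site of production. None of 81 members passed, where 21.4% of all 13510 genes did (8.34% higher and 13.1% lower). The median log2 fold change of members was 0.08 and that of all genes −0.05, and 54 members lay above 0, against 47.8% of genes. Libraries did not overlap for 8 members that were higher in blood (19.8% of all genes) and for 5 that were lower (25.6%). At an unadjusted p under 0.05 in the same edgeR test there were 3 members, Rpl39, Rps27a and Rpl31. The share of all genes at that threshold was not counted, and it is at least the 21.4% called after adjustment. DESeq2 called 2 (Rpl39 up and Rps27a down), limma-voom called 0, and the fit with the replicate number as a block called 3, of which 1 was higher (background 12.1%) and 2 were lower (background 17.5%).

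The extremes of this comparison had these values. Rpl39 stood at 38.4, 35.2 and 29.9 CPM in marrow and 45.1, 61.2 and 42.3 in blood, without overlap (0.52 ± 0.19, edgeR adjusted p = 0.0836, and 0.0261 with the block). Rps27a had −0.56 ± 0.18 (edgeR adjusted p = 0.060, and 0.0391 with the block), and its blood libraries lay below all of marrow. Rpl31, near the tunnel exit, stood at 121, 113 and 121 CPM in marrow and 80.6, 91.8 and 59.98 in blood (−0.61 ± 0.25, edgeR adjusted p = 0.117, and 0.0497 with the block). The lowest value of all members was that of Rps4l (−0.80 ± 0.37, adjusted p = 0.158), and next below Rpl39 at the upper end came Rpl36al (0.50 ± 0.51) and Rpl36 (0.45 ± 0.22). Lung replicate 3 enters this comparison through the shared spread, the scaling and the choice of genes tested. Without it 3 members were called (background 27.1% in either direction), and without lung replicate 1 there was 1 (background 21.2%).

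Replicate 3 was low for most members in blood and lung, and in marrow for some of them. It held the lowest CPM of its tissue for 41 of 81 members in marrow, 69 in blood and 63 in lung. Of 81 members, 40 had their lowest CPM in replicate 3 in each tissue, against 18.9% of the 13510 genes tested. The ratio of replicate 3 to the mean of replicates 1 and 2 had a median over members of 0.977 in marrow, 0.750 in blood and 0.698 in lung, against 1.03, 0.982 and 0.903 over all genes. Members did not share this to the same degree. Rpl10a, a protein of the L1 stalk, stood at 53.9, 41.5 and 18.8 CPM in marrow, 48.2, 71.3 and 21.7 in blood, and 116, 88.3 and 28.3 in lung, ratios of 0.395, 0.362 and 0.278. Rpl12, at the base of the P stalk, stood at 117, 109 and 58.4 CPM in marrow, 102, 160 and 46.0 in blood, and 234, 194 and 66.5 in lung. Rps20, in the small-subunit head, stood at 60.8, 59.2 and 34.0 CPM in marrow, 58.4, 85.6 and 27.8 in blood, and 168, 115 and 40.2 in lung. In each of these genes replicate 3 was the lowest library of its tissue, and lung replicate 3 came down to the level of marrow.

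The order of members by this ratio was alike in the 3 tissues. Over 80 members, without Rps27, the log2 ratios had Pearson's r of 0.851 between marrow and blood, 0.834 between marrow and lung, and 0.901 between blood and lung, and Spearman's rho of 0.835, 0.791 and 0.879. This describes genes and not samples, and the libraries of a tissue share their depth and scaling. Over all genes above a minimum CPM in every library, a filter not applied to the members, r was 0.412, 0.359 and 0.390. At the low end after Rpl10a, Rpl12 and Rps20 came Rpl3, Rpl36al, Rps18, Rps19, Rpl36a, Rps4x and Rpl32. At the high end were Rpl9, Rpl17, Rpl34, Rps25, Rps27a, Rpl37, Rps27l, Rpl7l1, Rps9 and Rpl3l. Rps9 stood at 640, 707 and 930 CPM in marrow, 777, 775 and 858 in blood, and 1111, 861 and 1210.3 in lung, highest in replicate 3 each time. The summed T and NK cell markers were lowest in replicate 3 as well. Their sum was 107, 108 and 36.6 CPM in marrow, 31.3, 123 and 22.6 in blood, and 111, 122 and 18.3 in lung. In blood, replicate 1 was low too. There Cd3d, Cd3g, Cd8a, Il7r and Bcl11b were lowest in replicate 1, and Cd3e, Cd4, Lck, Nkg7 and Klrb1c in replicate 3. Summed B cell markers were also lowest in replicate 3, while summed neutrophil markers were highest there. Other lists differed by tissue. In marrow the monocyte and dendritic cell, macrophage, platelet, fibroblast and lung epithelium sums were highest in replicate 3. The platelet sum was also highest there in lung, and the lung epithelium sum in blood. In lung the other 4 of these sums were lowest in replicate 3, as were all but the platelet and lung epithelium sums in blood. The sum of the 8 progenitor markers, which include genes of dividing cells, was 349, 176 and 50.2 CPM in marrow, 6.78, 6.97 and 4.19 in blood, and 96.9, 78.1 and 33.0 in lung, with Mpo, Elane and Ctsg at 0 in some libraries. The sum of the 8 erythroid markers was 1099, 1018 and 705 CPM in marrow, 635, 689 and 327 in blood, and 165, 135 and 32.6 in lung. Within this list Hbb-bs was highest in replicate 3 of marrow (132, 237 and 656 CPM) and of blood (105, 130 and 308). Hba-a1 was highest in replicate 3 of lung (4.87, 4.17 and 32.2 CPM). The other markers of the list were not highest in replicate 3 of any tissue, and most of the list was at 0 in some libraries. The sum of the 8 endothelial markers was 21.3, 20.6 and 19.99 CPM in marrow, 29.6, 42.0 and 23.1 in blood, and 102, 72.8 and 27.9 in lung. In marrow most of it was Pecam1 (18.2, 18.7 and 15.8 CPM). Pecam1 and Emcn were lowest in marrow replicate 3, while Cdh5, Kdr, Tek, Cldn5 and Egfl7 were highest there and Vwf lay between. The part of these markers in the pattern was not tested.

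None of the 10 lowest members passed in lung over marrow, although their median log2 fold change of 0.85 was above that of all members (0.64), and their SEs ran from 0.39 to 0.60. With the replicate number as a block 7 of the 10 passed, among them Rpl10a (edgeR adjusted p = 0.0104), Rps20 (adjusted p = 0.0296) and Rpl12 (adjusted p = 0.0435), and so did Rps9 (adjusted p = 0.0377). The 10 were picked by their low replicate 3, which by itself widens their errors. Their change between these fits follows in part from that choice. A fit on replicates 1 and 2 alone, chosen after the data were seen, called 67 members higher in lung than marrow (background 28.1%). Among them were all 35 and all 10 of the lowest. Rpl10a then had 1.07 ± 0.24 (edgeR adjusted p = 0.00732), Rps20 had 1.21 ± 0.24 (adjusted p = 0.00446) and Rps19 had 1.08 ± 0.25 (adjusted p = 0.00982). The same fit called 49 higher in lung than blood (background 22%), of which 13 were among the 17. In blood against marrow it called 0 in either direction (background 27.0%, with 11.9% higher). In replicate 3 alone, the median log2 ratio of lung over marrow was 0.38 over members, with 65 of 81 above 0, against −0.19 over all genes, and it was 0.98 and 0.53 in replicates 1 and 2.

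**Figure D3:**
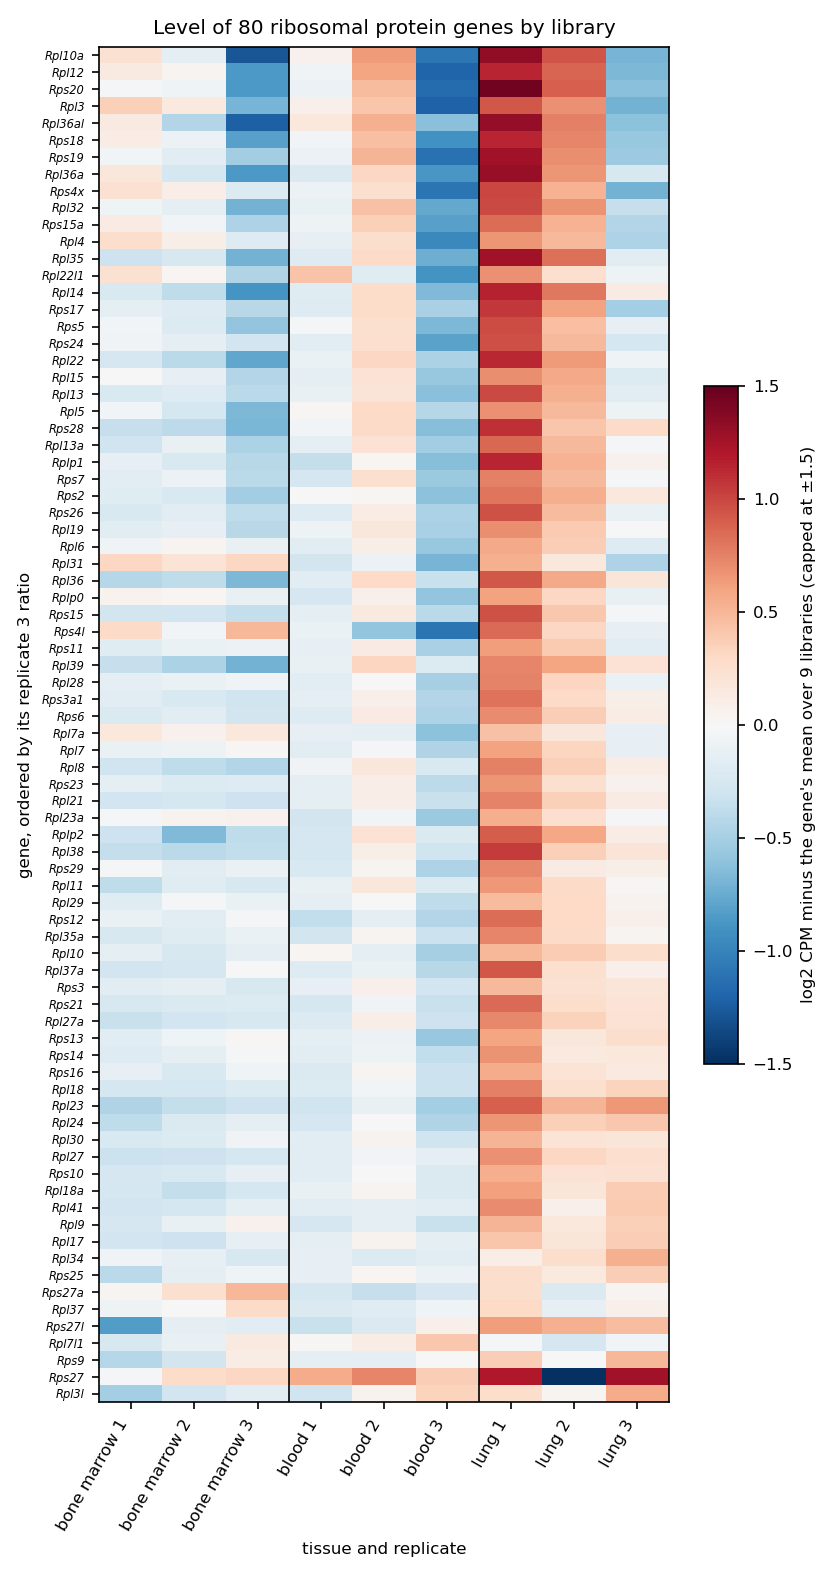
Log2 CPM of 80 of the 81 tested members in the 9 libraries, each minus the gene's own mean, with members ordered by their ratio of replicate 3 to the mean of replicates 1 and 2. Lung libraries 1 and 2 are high for most members, and replicate 3 is low in each tissue for members at the Rpl10a end and not at the Rps9 end.

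**Figure D4:**
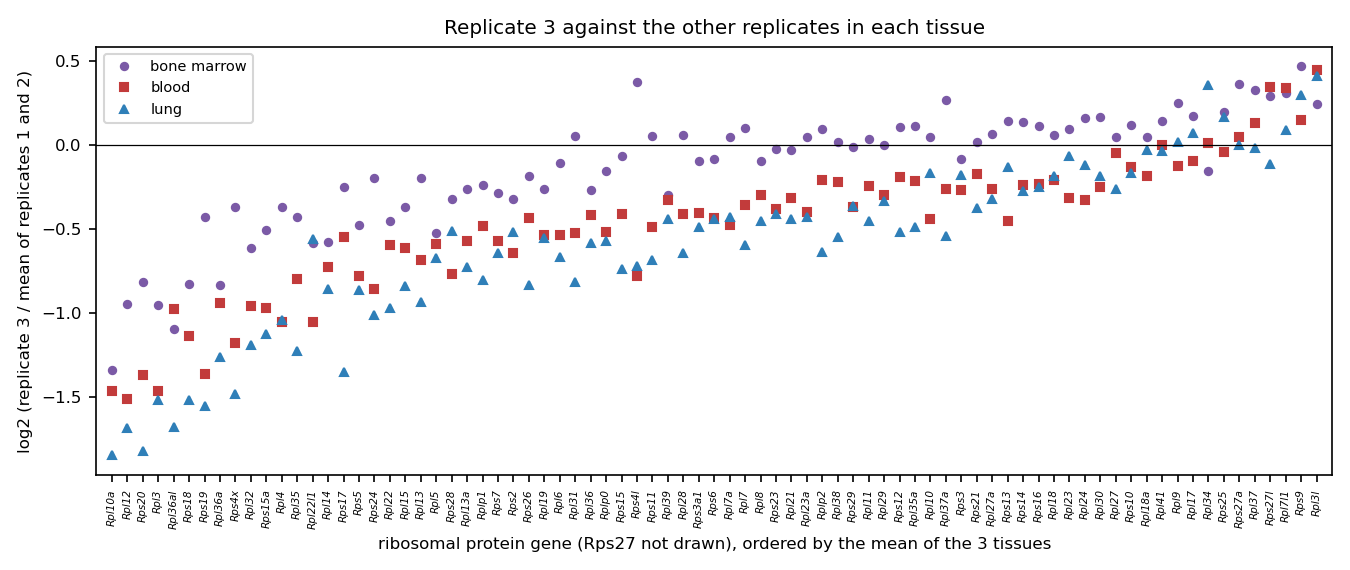
Log2 ratio of replicate 3 to the mean of replicates 1 and 2 for 79 members in marrow, blood and lung, without Rps27. Members keep a similar order in the 3 tissues, with Rpl10a at ratios of 0.395, 0.362 and 0.278 and Rps9 at 1.38, 1.11 and 1.23.

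Some members have a paralog, which can replace the usual protein in specialised cells. The ratio of paralog to parent was compared over the 3 tissues in 6 pairs by exact permutation over 1680 arrangements, with adjustment over the pairs. No pair passed with all 9 libraries. The smallest exact permutation p-values were those of Rpl36al over Rpl36a (p = 0.0536, adjusted 0.182) and Rpl7l1 over Rpl7 (p = 0.0607, adjusted 0.182). Rpl36al had 30.7 to 51.3% of the reads of Rpl36a, with the mean log2 ratio at −1.52 ± 0.16 in marrow, −1.05 ± 0.08 in blood and −1.42 ± 0.25 in lung (SD, n = 3). Rpl7l1 had 8.61 to 24.1% of the reads of Rpl7, lowest in lung replicates 1 and 2. Without lung replicate 3 both pairs passed, each with an adjusted exact permutation p of 0.0214 (raw p = 0.00714 for Rpl36al and 0.00357 for Rpl7l1), and no pair passed without any other single library. Permuting tissues only within replicate numbers, an alternative added after the data were seen, gave exact permutation p-values of 0.0556 for Rpl36al and 0.0278 for Rpl7l1, both 0.167 after adjustment, where 0.0278 is the smallest p these 216 arrangements allow and cannot pass alone after adjustment over 6 pairs.

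The remaining pairs had higher exact permutation p-values, of 0.221 for Rpl22l1 over Rpl22, 0.475 for Rps4l over Rps4x, 0.632 for Rps27l over Rps27 and 0.729 for Rpl3l over Rpl3. For Rps27l the percent of parent reads ran from 1.95 to 141, the highest in lung replicate 2, where Rps27 had 380 reads and its copy, described below, most of the pair, and without that library the exact permutation p was 0.811. Rpl3l and Rps4l remained minor copies everywhere, with 1.46 to 7.77% and 1.19 to 3.44% of the reads of the parent. Rps27l, a gene induced by p53, rose with the family in lung over marrow (0.89 ± 0.23, edgeR adjusted p = 0.0153), from 4.12, 6.68 and 6.60 CPM in marrow to 11.4, 10.7 and 10.2 in lung. Rpl10l and Rpl39l had too few reads for a ratio.

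Ribosomal protein genes have many processed copies in the genome, so the counting was compared with a second count of the same blood and lung libraries, the RSEM expected counts. The series table held 2 to 2.02 times the RSEM count in the median gene of each library. In all 6 libraries 70 of 85 members kept a ratio from 1.6 to 2.4, and so did 81.8% of the other genes compared. Rpl26 did not: it had 3 to 6 reads in these libraries of the series table against expected counts of 2359 to 6327, and Rpl34 had ratios of 0.0722 to 0.121. Rpl5 lay on the other side, at 5.13 to 6.82, followed by Rpl27 at 2.95 to 3.62 and Rpl27a at 2.65 to 2.96. The low level of Rpl26 given above therefore belongs to the series table and not to the RSEM count.

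Rps27, a zinc-binding small-subunit protein, was assigned differently in a single library. Its reads in lung were 24763, 380 and 18993, and those of Rps27rt, a near-identical copy outside the rule, were 1053, 18225 and 1393. RSEM gave Rps27 12849, 9249 and 10178 in the same libraries. Lung replicate 2 alone thus had most reads of the pair listed under the copy. Joined, a step added after the data were seen, the pair stood at 201, 250 and 253 CPM in marrow, 299, 348 and 273 in blood, and 469, 371 and 506 in lung. It then rose in lung over marrow (0.93 ± 0.19, edgeR adjusted p = 0.0046), where Rps27 alone did not pass (0.46 ± 0.97, adjusted p = 0.734). The joined pair had 0.55 ± 0.19 in lung over blood (edgeR adjusted p = 0.0552) and 0.39 ± 0.19 in blood over marrow (edgeR adjusted p = 0.177).

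**Figure D5:**
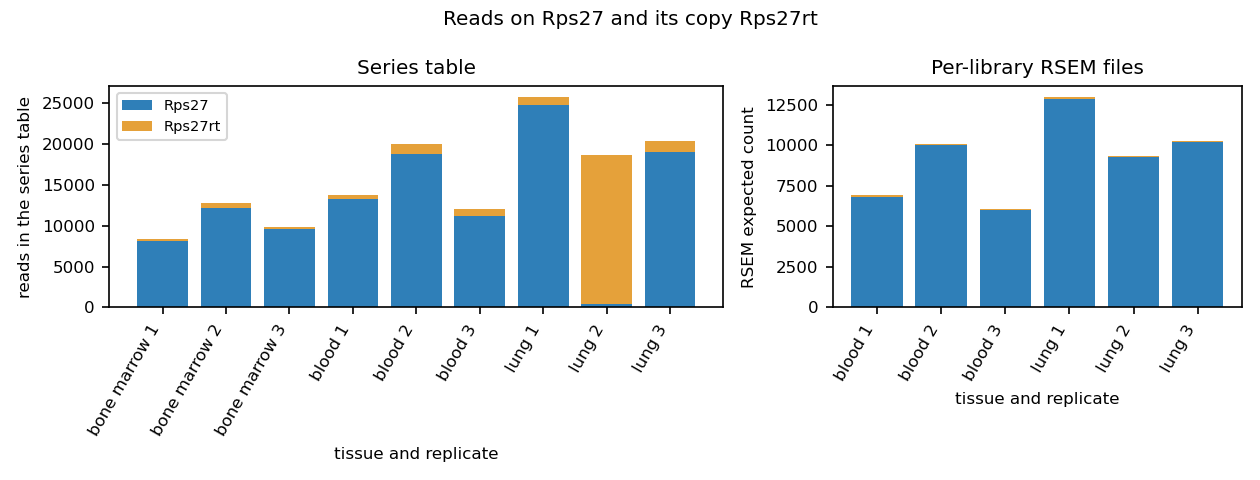
Reads on Rps27 and on its copy Rps27rt in the 9 libraries of the series table, and RSEM expected counts in the blood and lung libraries, as stacked bars. Lung replicate 2 has 380 reads on Rps27 and 18225 on Rps27rt in the series table, and 9249 on Rps27 by RSEM.

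On RSEM counts, 82 members were tested in lung over blood, and 81 lay above 0. The share of all genes above 0 in this fit was not counted, and 10.3% of all genes were called higher. Only Rpl23 (1.04 ± 0.20, edgeR adjusted p = 0.0141) and Rpl24 (0.76, adjusted p = 0.0279) passed, where the series table gave 17 in a fit that also held marrow. With series counts the fit on the same 6 libraries called 2 (background 10.1% higher). Rpl26 had 0.58 ± 0.25 (adjusted p = 0.144) and Rpl34 had 0.60 (adjusted p = 0.0579).

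Rpsa, Fau and Rack1, ribosomal proteins with other symbols, did not pass in any comparison. In lung over marrow, Rpsa, also known as the laminin receptor, had 0.76 ± 0.50 (edgeR adjusted p = 0.257), Rack1, a scaffold on the small subunit, 0.65 ± 0.35 (adjusted p = 0.17) and Fau 0.53 ± 0.24 (adjusted p = 0.113). Rpsa was low in replicate 3, at 217, 193 and 124 CPM in marrow, 181, 264 and 86.6 in blood, and 449, 325 and 129 in lung. Fau had its highest level in replicate 3 of each tissue, like Rps9.

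Genes that make ribosomes were counted beside their products. Of 54 ribosome biogenesis genes, 10 rose and 2 fell in lung over marrow, with a median of 0.83, against 15.6% and 22.6% of all genes called higher and lower. Rrp1, needed for large-subunit processing, stood at 50.5, 47.2 and 51.2 CPM in marrow, 56.9, 48.9 and 38.4 in blood, and 128, 110 and 165 in lung (1.43 ± 0.19, edgeR adjusted p = 0.000542). Sbds, which releases Eif6 from new large subunits, rose by 1.36 ± 0.20 (adjusted p = 0.000876), while Eif6 itself fell (−0.54 ± 0.13, adjusted p = 0.0118). Bop1 and Pes1, partners in a large-subunit processing complex, rose by 1.19 and 1.07, and they were already higher in blood than marrow (0.84, adjusted p = 0.00789, and 1.06, adjusted p = 0.00294). For Rrp1, Sbds, Bop1 and Pes1 lung replicate 3 lay above every marrow library. In lung over blood 7 rose and 1 fell (13.2% and 15.7% of all genes), and in blood over marrow 3 rose and 2 fell (8.34% and 13.1% of all genes).

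RNA polymerase I and its factors, which transcribe ribosomal RNA, had 4 that rose and 4 that fell of 20 in lung over marrow. Here and for the lists that follow, 15.6% of all genes rose and 22.6% fell in this comparison. Its largest subunit, Polr1a, fell from 223, 243 and 273 CPM in marrow to 47.3, 55.9 and 78.5 in lung (−2.02 ± 0.21, edgeR adjusted p = 0.000143). Polr2f, a subunit shared by the nuclear polymerases, rose by 1.63 ± 0.26. Of 17 chaperones and importers of ribosomal proteins, 4 rose and 2 fell, with Nap1l1 (1.38) and Naca (0.67) among those that rose. Mitochondrial ribosomal proteins, which form a separate ribosome, had 7 that rose and 12 that fell of 78, with a median of 0.11 and both shares below those of all genes, from Mrpl48 (−1.38) to Mrpl4 (1.11) among those with the smallest p.

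Other TOP messages and their regulators were mixed. Of 29 translation factors and other TOP messages, 8 rose and 4 fell in lung over marrow, with a median of 0.10, against 15.6% and 22.6% of all genes. Eef1d (1.02 ± 0.19), an exchange factor of elongation, and Tpt1 (0.69 ± 0.18) rose, and Vim fell (−1.09 ± 0.23). Of 27 genes of mTOR and TOP control, 2 rose and 11 fell, with a median of −0.35. Rps6ka1, which encodes a kinase of ribosomal protein S6, fell from 458, 515 and 610 CPM in marrow to 200, 176 and 251 in blood and 55.6, 71.1 and 71.6 in lung (a log2 fold change of −3.0 ± 0.21 for lung over marrow, edgeR adjusted p = 2.83e-05). Rheb, the direct activator of mTORC1, rose from 31.8, 27.7 and 30.6 CPM in marrow to 64.0, 65.1 and 118 in lung (1.45 ± 0.23, adjusted p = 0.00138). Larp1 stood at 29.7, 24.4 and 17.4 CPM in marrow, 42.1, 53.6 and 43.5 in blood, and 39.3, 45.6 and 27.8 in lung, and rose in blood over marrow (0.96 ± 0.24, adjusted p = 0.0207). Of 25 genes of ribosome quality control and ribosome stress, 3 rose and 9 fell in lung over marrow, with G3bp1 at 2.27 ± 0.24 and Rnf25, a ubiquitin ligase acting on stalled ribosomes, at −2.19 ± 0.19.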

How the data were processed

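Neutrophil RNA of 9 libraries, 3 per tissue, was analysed. The submitters' processing notes list RSEM, DESeq2, STAR, Bowtie2 and StringTie 2.1.3b and build mm10, with no roles. The deposited series table holds read counts and FPKM per transcript, and read counts were summed per gene. For each library from blood or lung, a deposited RSEM table gives expected counts, rounded here, and TPM, which was not analysed. The deposited FPKM values were used for levels and 2 alternatives. The labels' protocols name both a standard and a stranded kit, so strand is uncertain. Counts were fitted with edgeR 4.0.16 in R 4.3.3 (TMM, filterByExpr, robust quasi-likelihood, group means of all 9 libraries), two-sided, with Benjamini-Hochberg adjustment over 13510 genes and a threshold of 0.05. The fit was tested on simulated data.

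Same-numbered libraries of different tissues deviated together in part (r from 0.106 to 0.560 in 9 pairs, against −0.593 to 0.504 in 18 others). The own number was the best match in 13 of 18 cases. Blood replicate 2 matched marrow replicate 1 (0.504) and lung replicate 1 (0.491) better than blood replicate 1 did (0.208 and 0.106). Deviations were from each tissue's own mean, so positive correlations entail negative ones. The block on number was treated as a possible pairing, and it also takes up what replicate 3 shares across tissues. This pairing comes from the data, as the labels name no shared animal.

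The members and gene lists were chosen with earlier results of these data known. Named were up to 10 called members per direction, the paralog pairs, the 5 highest and lowest by FPKM, the 3 farthest from the member median on each side, a panel of 12 (Rplp0, Rpl3, Rpl5, Rpl11, Rpl22, Rpl38, Rpl41, Rps6, Rps14, Rps19, Rps25 and Rps27a), and up to 4 genes per list by adjusted p. Rpl10a, Rpl12, Rps20 and Rps9, and some list genes, were named after their values were seen. DESeq2 1.42.0, limma 3.58.1 (limma-voom), other scalings, filters, the block and single libraries left out served as alternatives. Results of some genes are not reported here.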

Additional observations from a re-analysis of the deposited data

Results flagged for a closer look

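The following 2 values lay in data outside the tested members. The copy Rps27rt, which the rule does not include, had 18225 reads in lung replicate 2, where the other 8 libraries had 309 to 1393. Rpl26, which had too few reads in the series table to be tested, had an RSEM expected count of 6327 in lung replicate 1.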

How the results depend on the processing

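Members rose against blood in 17 cases. The number, with the share of all genes called higher in the same fit, was 56 with DESeq2 (18.3%), 33 with upper-quartile scaling (16.2%), 36 with DESeq2 size factors (13.95%), 1 with total counts (11.4%), 8 without the low-count filter (9.39%), 43 with the replicate block (15.3%), 2 on the 6 libraries compared (10.1%), 1 on log2(FPKM + 1) (10.3%) and 1 on log2(FPKM + 0.1) (11.3%), 2 on RSEM expected counts (10.3%) and 49 on replicates 1 and 2 (22%). Against marrow the 35 in lung became 62 with DESeq2 (23.3%), 55 with upper-quartile scaling (22.98%), 22 on 6 libraries (13.5%) and 67 on replicates 1 and 2 (28.1%). The 0 in blood against marrow, in either direction, became 2 with DESeq2 (26.6%), 4 with total counts (25.1%), 3 with the block (29.5%), 5 on 6 libraries (31.6%), 2 on log2(FPKM + 1) (24.9%) and 3 on log2(FPKM + 0.1) (24.8%). The cause was not tested. The block changed no other call than those counted here and in the results.

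With single libraries left out, calls ran from 1 to 56 (lung against blood), 11 to 57 (lung against marrow) and 0 to 3 (blood against marrow). Of all genes, 6.54 to 19.85% were called higher against blood in these fits, and 6.62 to 22.86% against marrow. For blood against marrow, 8.51 to 27.1% of all genes were called in either direction. The member medians ran from 0.35 to 0.68, 0.46 to 0.74 and 0.03 to 0.24, and the shares from 0.908 to 0.998% in marrow, 1.08 to 1.40% in blood and 1.38 to 2.03% in lung. The median of blood over marrow was 0.47 with total counts, 0.42 on log2(FPKM + 1) and 0.42 on log2(FPKM + 0.1), and that of lung over marrow 0.96 with upper-quartile scaling and 0.93 with total counts. As shares of summed FPKM, members held 2.30, 3.82 and 4.90% in marrow, blood and lung.

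The sign changed in members near 0. Rps27 in lung over blood was −1.27 with limma-voom, −0.11 with total counts, −0.23 with the block, −1.63 and −1.65 on the FPKM scales and −0.47 on replicates 1 and 2, and ran from −0.38 to 0.65 with single libraries left out. In lung over marrow, Rpl31 was 0.19 with upper-quartile scaling, 0.17 with total counts, 0.022 and 0.021 on the FPKM scales and 0.066 on replicates 1 and 2, and ran from −0.40 to 0.036 with single libraries left out. Rpl7l1 was 0.10 with DESeq2, 0.28 with upper-quartile scaling, 0.11 with DESeq2 size factors, 0.23 with total counts, 0.064 without the filter, 0.18 and 0.20 on the FPKM scales and 0.014 on replicates 1 and 2, with a range of −0.15 to 0.054. Rps27a was 0.091 and 0.039 with upper-quartile scaling and total counts. With single libraries left out, the log2 ratio of paralog to parent, lung minus marrow, ran from −0.40 to 0.64 for Rpl3l, −0.39 to 0.12 for Rps4l and −0.11 to 2.90 for Rps27l, lowest without lung replicate 2. Processed copies share sequence with these genes, and 3 libraries per tissue limit the precision.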
